A study of Homo sapiens with 8 samples.

Results

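The IGF2BP family, the insulin-like growth factor 2 mRNA-binding proteins, was described in the human acute myeloid leukaemia cell line MOLM13. Its members were the rows of the deposited gene table with the symbols IGF2BP1, IGF2BP2 and IGF2BP3, which are 3 of the 35369 genes with a symbol, and all 3 were among the 13030 genes tested. A row named IMP3, a symbol that is also used for IGF2BP3, belongs to another gene, which encodes a nucleolar protein, and was not used. The members were chosen by name, not by a measured value, although earlier results of these data were known.

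RNA of 8 libraries was measured by sequencing of polyadenylated RNA, in 4 groups of 2. In the rescue group, the genotype label is IGF2BP2 rescue. In the mutant rescue group it is IGF2PB2-mut rescue, with letters of the gene name transposed. In the knockdown group the titles give a short hairpin (sh) against IGF2BP2, again with transposed letters, and in the control group the label is wild type. Per the labels' protocols, target cells were infected with virus in the presence of polybrene and selected with puromycin where selection was needed. The labels describe neither the hairpin, the rescue construct and its mutation, nor any vector in the control cells. Nor do they say that a group's libraries came from separate cultures. The p-values therefore set a group difference only against the spread between these libraries, and that spread may be technical.

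IGF2BP proteins bind mRNA through paired RNA recognition motifs and a run of KH domains, and hold their targets in cytoplasmic particles where the mRNA is protected, transported or translated. They are counted among the readers of N6-methyladenosine (m6A), the most common internal modification of mRNA. IGF2BP1 and IGF2BP3 are known as oncofetal genes, abundant in the embryo, low in most adult tissues and raised in many tumours, while IGF2BP2 is expressed more widely in adult tissues. The mRNAs of the family are targets of the let-7 microRNAs, which pair through their seed with sites in the 3′ untranslated region (UTR).

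In the GENCODE v29 annotation of GRCh38, IGF2BP2 (ENSG00000073792.15) lies on the minus strand of chromosome 3, from 185643739 to 185825056. IGF2BP3 (ENSG00000136231.13) lies on the minus strand of chromosome 7, from 23310209 to 23470467, and IGF2BP1 (ENSG00000159217.9) on the plus strand of chromosome 17, from 48997412 to 49055650. The transcripts used here had 3′ UTRs of 1559 bases in IGF2BP2, 2156 in IGF2BP3 and 6209 in IGF2BP1. Their seed matches for let-7 (CTACCTC, searched on the transcript strand and written as DNA) are shown because they are a feature that all 3 transcripts share, each in 30 bases of the 3′ UTR from 5′ to 3′, with the seed match in capitals. The first line is the mature let-7a of RefSeq, as RNA, with its seed, bases 2 to 8, in capitals. The sites lie, in the order printed, at chr3:185644210-185644239 and chr7:23311785-23311814 on the minus strand, and at chr17:49051064-49051093, chr17:49053701-49053730, chr17:49054355-49054384 and chr17:49055000-49055029 on the plus strand.
let-7a-5p: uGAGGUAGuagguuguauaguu
IGF2BP2 site: acacagaagaagCTACCTCaggtgttttta
IGF2BP3 site: atttttactcaaCTACCTCaggtattcagt
IGF2BP1 site 1: gtgcgaagtaaaCTACCTCaaggtatgaag
IGF2BP1 site 2: cagtgctagtaaCTACCTCacagagcccca
IGF2BP1 site 3: taaatggattaaCTACCTCaatccttacag
IGF2BP1 site 4: cttttgttttatCTACCTCttagcaaaaca

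IGF2BP2 and IGF2BP3 each held 1 seed match and IGF2BP1 held 4. Of 2251 3′ UTRs within 20% of the length of that of IGF2BP2, 10.4% held at least as many matches. The corresponding share was 12.2% of 2123 for IGF2BP3 and 0.638% of 627 for IGF2BP1. A match of letters is a description and not a bound site, and microRNA levels were not measured in these libraries. Whether the rescue construct held a UTR is not stated in the labels.

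The coding sequences are closely related, with 70.7% identical bases between IGF2BP2 and IGF2BP3, 70% between IGF2BP1 and IGF2BP2 and 70.5% between IGF2BP1 and IGF2BP3. The 60-base coding stretch in which the 3 are most alike is shown to give the scale of this likeness. In it 45 positions hold the same base in all 3 genes, and the 15 positions that differ are in capitals. It spans an exon junction in each gene, within chr3:185649516-185652134 and chr7:23313635-23317679 on the minus strand and chr17:49045025-49045908 on the plus strand (GRCh38, GENCODE v29).
IGF2BP2: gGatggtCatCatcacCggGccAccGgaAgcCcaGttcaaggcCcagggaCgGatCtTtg
IGF2BP3: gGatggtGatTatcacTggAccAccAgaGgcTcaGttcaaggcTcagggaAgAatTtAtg
IGF2BP1: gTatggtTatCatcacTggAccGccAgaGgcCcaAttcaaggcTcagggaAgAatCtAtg

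No stretch of 31 bases in either orientation was shared between any of the 3 genes' transcripts, the longest identical run between aligned coding sequences being 22 bases, between IGF2BP1 and IGF2BP2. Reads within such a shared run could be split between members, and longer ones can be told apart. With transcripts of other genes, the shared share of 31-base words was 16.5% for IGF2BP2, most of it with processed pseudogenes, 28.1% for IGF2BP3 and 1.80% for IGF2BP1. For IGF2BP3, MALSU1, an overlapping gene for a mitochondrial ribosome assembly factor, held 17.2% of its words. How the authors' processing assigned reads from such words is not stated. Words were counted in either orientation, so if strand was not used, IGF2BP3 and MALSU1 cannot be told apart within them. The level of IGF2BP3 may be uncertain to that extent.

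The authors' values are on a log2 scale after their normalization, and a step of 1 is a doubling on that scale. Folds and shares below are those of the deposited scale, on which changes of low genes may be understated. Those of IGF2BP2 may be too. The authors' log2 changes for it were -0.87 in knockdown against control, 1.24 in rescue against knockdown and 0.74 in mutant rescue against knockdown. The deposited values gave -0.67, 1.00 and 0.61. IGF2BP2, the targeted gene, had values of 11.36 and 11.13 in the rescue libraries, 11.03 and 10.68 in the mutant rescue libraries, 10.24 and 10.25 in the knockdown libraries, and 10.94 and 10.89 in the control libraries. Both knockdown libraries lay below all others, both rescue libraries lay above all others, and the mutant rescue libraries lay on either side of the controls.

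IGF2BP3 had log2 values of 8.57 and 8.92 in rescue, 8.82 and 8.10 in mutant rescue, 8.62 and 8.71 in knockdown, and 8.40 and 8.24 in control. Both control libraries lay below the rescue and the knockdown libraries, while the mutant rescue libraries spanned nearly the whole range, one of them being the lowest of the 8. IGF2BP1 had log2 values of 7.15 and 7.10 in rescue, 7.27 and 7.10 in mutant rescue, 6.90 and 7.14 in knockdown, and 7.33 and 7.14 in control. Its lowest library was a knockdown and its highest a control, and the range over all 8 libraries was 0.43, against 0.82 for IGF2BP3 and 1.12 for IGF2BP2.

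**Figure D1:**
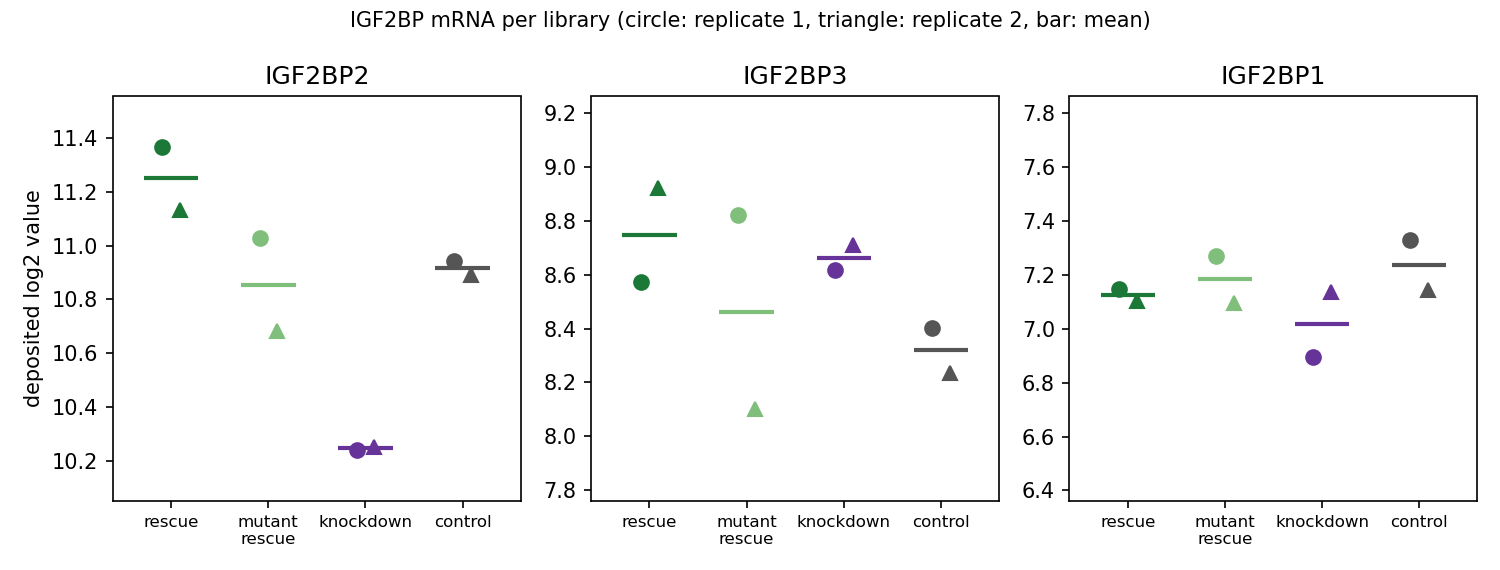
Deposited log2 value of each gene (vertical axis) in the 4 groups, with a circle for replicate 1, a triangle for replicate 2 and a bar for the mean of 2; the panels start at different values and have the same height in log2 units. IGF2BP2 separates the knockdown libraries, at 10.24 and 10.25, from all others, while IGF2BP3 and IGF2BP1 overlap between most groups.

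The order of the levels was the same in every library, IGF2BP2 highest, IGF2BP3 next and IGF2BP1 lowest. After division by transcript length in kilobases, the log2 level averaged 9.04 for IGF2BP2, 6.46 for IGF2BP3 and 4.09 for IGF2BP1 over the 8 libraries, and the gaps between neighbours in this order were larger than the range of any member. As a share of each library's summed linear values, IGF2BP2 stood at 179 and 154 ppm (1 ppm being 1 part in 1000000) in rescue, 135 and 102 in mutant rescue, 89.6 and 89.9 in knockdown, and 143 and 131 in control. Its mean over the 8 libraries was 128 ppm, that of IGF2BP3 26.3 ppm and that of IGF2BP1 9.76 ppm. The ordering by length rests on 1 annotated transcript per gene, and the file headers do not say whether the authors' values already account for length.

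IGF2BP2 fell in the knockdown libraries and rose above them in both kinds of rescue. In knockdown against control, its log2 value averaged 10.25 ± 0.01 against 10.92 ± 0.04 (SD, n = 2 each), a log2 change of -0.67 (SE 0.13, 95% confidence interval -0.97 to -0.37), which is 1.59-fold lower, with an adjusted p of 0.0147 by limma. The authors' deposited table gave a log2 change of -0.87 for it, with an adjusted p of 1.15e-07. IGF2BP2 was the 1 member of 3 called, where 12.8% of all genes tested were called in this comparison. The change lay between -0.70 and -0.64 with any 1 library left out, but it missed the threshold without control 1, control 2, knockdown 1 or knockdown 2, with adjusted p-values of 0.0662, 0.0754, 0.119 and 0.123. Less of the mRNA per cell and fewer cells that carry it cannot be told apart in these bulk libraries.

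In rescue against knockdown, IGF2BP2 averaged 11.25 ± 0.16 against 10.25 ± 0.01 (SD, n = 2 each), a log2 change of 1.00 (interval 0.71 to 1.30, adjusted p = 0.00324 by limma), or 2.00-fold higher. It was the only member called, against a background of 4.24% of genes, and it was called with each of the 8 libraries left out, the change lying between 0.89 and 1.12. In mutant rescue against knockdown, it averaged 10.86 ± 0.24 against 10.25 ± 0.01, a log2 change of 0.61 (interval 0.31 to 0.90, adjusted p = 0.0298), or 1.52-fold higher, and again it alone was called, where 11.3% of genes were. This call was lost without knockdown 1 (adjusted p = 0.164) or knockdown 2 (adjusted p = 0.190), and with only these groups in the fit (adjusted p = 0.0722). Transcripts of the endogenous gene and of a rescue construct cannot be told apart in the gene's row.

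No member was called by limma in the other comparisons, in which 1, 1 and 0 of the 3 had an unadjusted p under 0.05, IGF2BP2 in rescue against mutant rescue (0.0152) and in rescue against control (0.0321). For IGF2BP2 the difference of rescue minus mutant rescue was 0.39 (interval 0.10 to 0.69, adjusted p = 0.0839), with 10.5% of genes called. Without mutant rescue 1 this difference was 0.57. In rescue minus control the difference was 0.33 (interval 0.04 to 0.63, adjusted p = 0.175) with 7.18% of genes called. It was 0.22 without rescue 1. In mutant rescue minus control it was -0.06 (interval -0.36 to 0.24, adjusted p = 0.749), where 24.9% of genes were called, and the control values lay between those of the mutant rescue libraries. Without mutant rescue 2 this last difference was 0.11.

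For IGF2BP3, knockdown averaged 8.66 ± 0.07 against 8.32 ± 0.12 in control (SD, n = 2 each). The difference was 0.34 (SE 0.22, interval -0.16 to 0.85, adjusted p = 0.346 by limma). In rescue it averaged 8.75 ± 0.25 and was 0.43 above control (interval -0.08 to 0.93, adjusted p = 0.307). This difference was 0.25 without rescue 2 and 0.60 without rescue 1. The authors' deposited table gave log2 changes of 0.44 and 0.62 for these comparisons, with adjusted p-values of 0.142 and 0.140. With all groups in the fit, its interval for knockdown against control includes both no change and a rise of a size larger than the fall of IGF2BP2. With only these groups in the limma fit, the same difference had an SE of 0.11 and an adjusted p of 0.0637. A change was thus not resolved by 2 libraries a group.

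The mutant rescue libraries of IGF2BP3, which averaged 8.46 ± 0.51 (SD, n = 2), were 0.72 apart, and the sign of each comparison they entered turned on which of them was kept. Mutant rescue minus knockdown was -0.20 (interval -0.71 to 0.31), rescue minus mutant rescue 0.28 (interval -0.22 to 0.79) and mutant rescue minus control 0.14 (interval -0.36 to 0.65). Without mutant rescue 1 these values were -0.56, 0.64 and -0.22, of which -0.56 (adjusted p = 0.0486) and 0.64 (adjusted p = 0.0308) passed the threshold, and without mutant rescue 2 they were 0.16, -0.07 and 0.50. The difference between rescue and knockdown was 0.08 (interval -0.42 to 0.59, adjusted p = 0.879) and was -0.09 without rescue 2.

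For IGF2BP1, knockdown averaged 7.02 ± 0.17 against 7.24 ± 0.13 in control (SD, n = 2 each). The difference was -0.22 (SE 0.14, interval -0.54 to 0.09, adjusted p = 0.333 by limma). It lay between -0.34 and -0.10 with 1 library left out. The higher knockdown and the lower control value were equal to 2 decimals. Its differences in the other comparisons lay between -0.11, in rescue minus control, and 0.17, in mutant rescue minus knockdown, with adjusted p-values between 0.420 and 0.801. All its intervals covered 0 and none reached beyond 0.54 in size on the log2 scale. In the authors' deposited table its log2 changes lay between -0.44 and 0.28, with adjusted p-values of at least 0.372.

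The authors' deposited adjusted p was under 0.05 for IGF2BP2 in 3 comparisons, with log2 changes of -0.87 in knockdown against control, 1.24 in rescue against knockdown and 0.74 in mutant rescue against knockdown, and for no other member. Among all genes tested here 20.1%, 10.1% and 7.87% passed the same threshold of that table in these comparisons, and 7.66%, 8.1% and 16.8% in rescue against mutant rescue, rescue against control and mutant rescue against control.

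**Figure D2:**
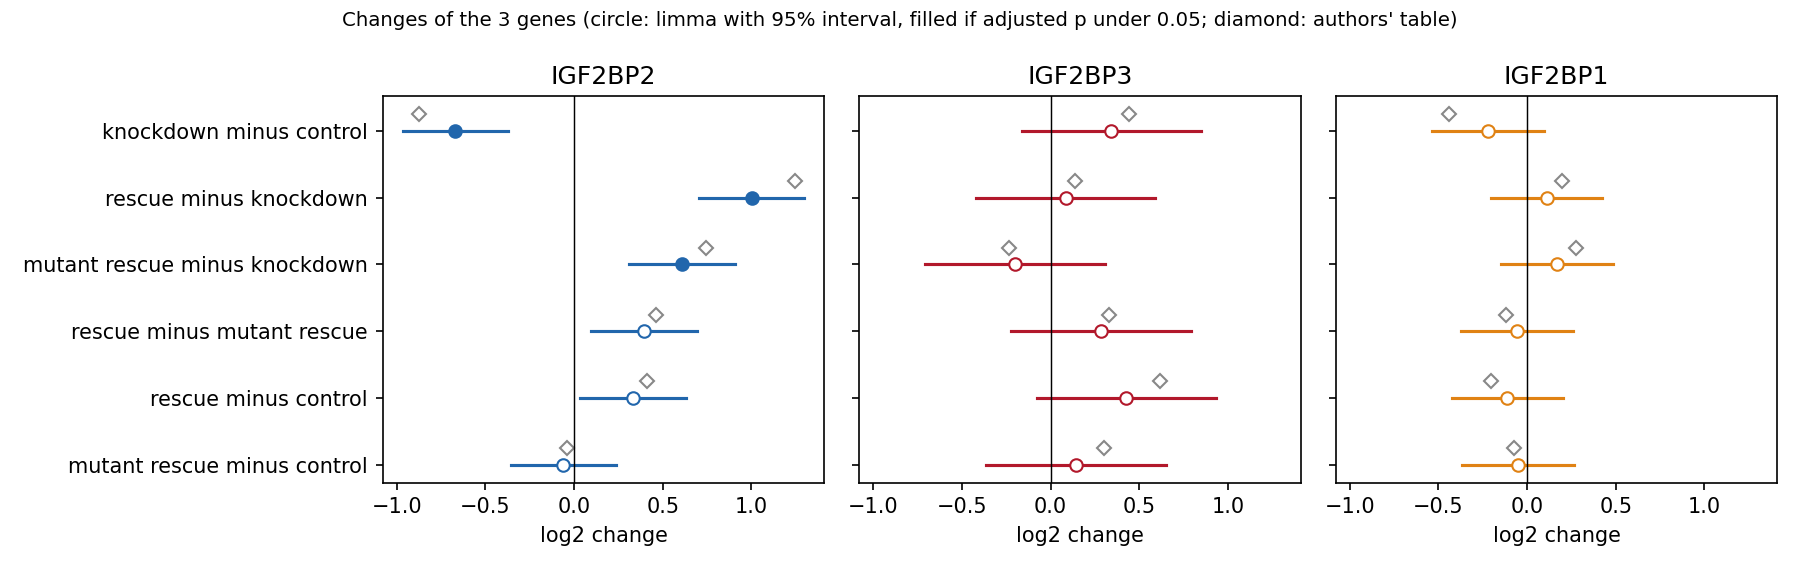
Log2 change of each gene (horizontal axis) in the 6 comparisons. Circles are limma estimates with 95% confidence intervals, filled where the adjusted p is under 0.05, and diamonds are the authors' deposited log2 changes; the filled circles are those of IGF2BP2 at -0.67, 1.00 and 0.61, and every interval of IGF2BP3 and IGF2BP1 crosses 0.

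The makeup of the family differed between the groups. On the linear scale IGF2BP2 held 83.5% and 78.3% of the sum of the 3 genes in the rescue libraries, 77.5% and 80.0% in mutant rescue, 70.3% and 68.6% in knockdown, and 79.8% and 81.1% in control. The knockdown libraries held the lowest shares of the 8, apart from all others. The share of IGF2BP3 was 12.1% and 16.9% in rescue, 16.8% and 13.4% in mutant rescue, 22.8% and 23.5% in knockdown, and 13.7% and 12.9% in control, so that it was highest in the knockdown libraries. IGF2BP3 itself averaged 29.5 ppm in rescue, 23.2 ppm in mutant rescue, 29.9 ppm in knockdown and 22.7 ppm in control. Its share is computed from the level of IGF2BP2 as well as its own, and a change of its own level was not resolved. The share of IGF2BP1 was also highest in the knockdown libraries, at 6.91% and 7.91%, and lay between 4.49% and 6.65% in all others.

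Per kilobase of transcript, IGF2BP2 held 87.8% and 83.4% of the family in rescue, 83.0% and 85.5% in mutant rescue, 76.8% and 75.5% in knockdown, and 85.3% and 86.3% in control, and the knockdown libraries were again lowest. The family's sum itself was 214 and 196 ppm in rescue, 174 and 128 in mutant rescue, 127 and 131 in knockdown, and 179 and 161 in control. The second mutant rescue library thus lay within the knockdown range for the sum, although its IGF2BP2 share did not. No p-value is given for shares, since an exact two-sided permutation test of 2 libraries against 2 cannot go below 0.333.

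**Figure D3:**
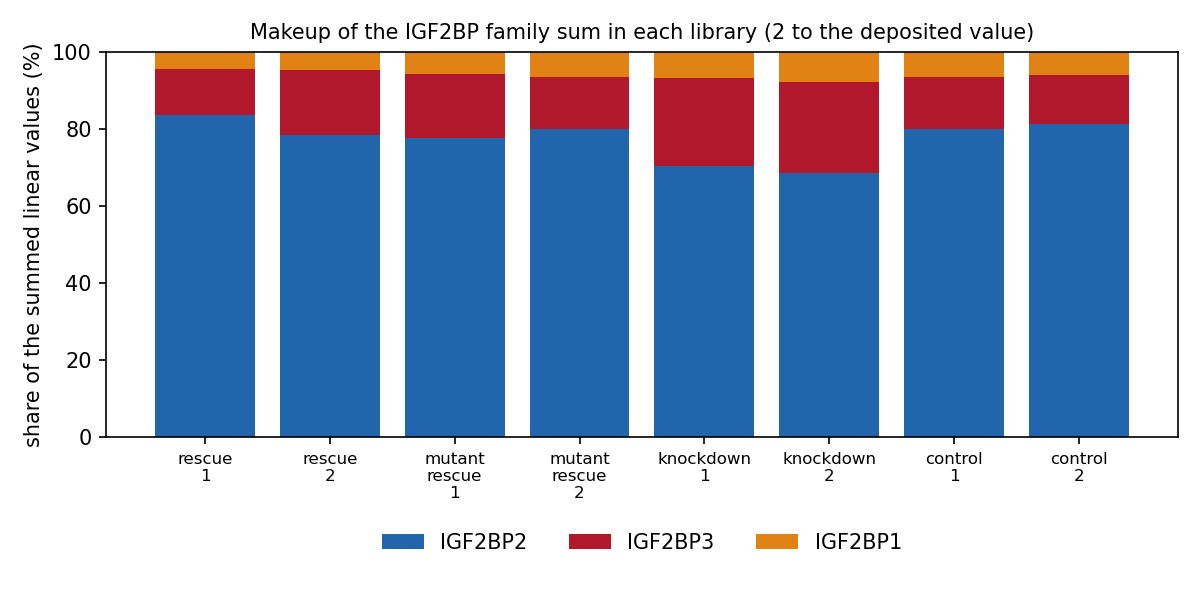
Share of each gene (vertical axis, percent) in the sum of the linear values of the 3 genes, with 1 stacked bar per library. IGF2BP2 holds 70.3% and 68.6% of the sum in the knockdown libraries and at least 77.5% in all others.

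Genes whose pattern over the 8 libraries was most like that of each member were named by the root mean square difference of log2 values after each gene's own mean was subtracted. For IGF2BP2 these were DNAJA1, an Hsp40 co-chaperone, at 0.158, CEBPZ, a nucleolar factor of ribosome assembly, at 0.164, ARID5A, an RNA-binding protein of the AT-rich interaction family, at 0.167, EZR, the membrane to actin linker ezrin, at 0.169, and NR4A2, an orphan nuclear receptor, at 0.169. A gene with no variation would be at 0.376 from IGF2BP2, and the median over the 13029 other genes was 0.414. No gene came within 0.1 of it.

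NR4A2 had log2 values of 10.28 and 10.20 in rescue, 9.65 and 9.56 in mutant rescue, 9.30 and 9.38 in knockdown, and 10.05 in both control libraries. Its rescue libraries were highest and its knockdown libraries lowest, as in IGF2BP2, but its mutant rescue libraries stayed below both controls. DNAJA1 had 12.90 and 12.78 in rescue, 12.47 and 12.26 in mutant rescue, 12.16 and 12.03 in knockdown, and 12.34 and 12.52 in control, so that mutant rescue overlapped control in this gene.

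For IGF2BP3 the nearest genes were SEC24C, a subunit of the COPII vesicle coat, at 0.0698, PLA2G4B, a phospholipase, at 0.0869, FAS, the death receptor, at 0.0962, PRKACB, a catalytic subunit of protein kinase A, at 0.0973, and GALNT3, which starts O-linked sugar chains, at 0.104. All 5 were lowest or next to lowest in the second mutant rescue library, as IGF2BP3 was. SEC24C, for example, had log2 values of 11.76 and 11.96 in rescue, 11.95 and 11.37 in mutant rescue, 11.67 and 11.87 in knockdown, and 11.61 and 11.39 in control. In each of the 5 the mutant rescue libraries lay farther apart than the control libraries did.

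For IGF2BP1 the nearest genes were FAR2, a fatty acyl reductase, at 0.0446, BET1L, a vesicle fusion protein of the Golgi, at 0.0505, RFX2, a transcription factor, at 0.0512, ZNF574, a zinc finger protein, at 0.0528, and SCFD1, a regulator of vesicle fusion, at 0.0549. As many as 229 genes came within 0.1 of it, and a gene with no variation would be at 0.121. The neighbours thus mark it as a gene that varied little on the deposited scale, on which changes may be understated. These patterns were chosen for their likeness in the same libraries and get no test.

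**Figure D4:**
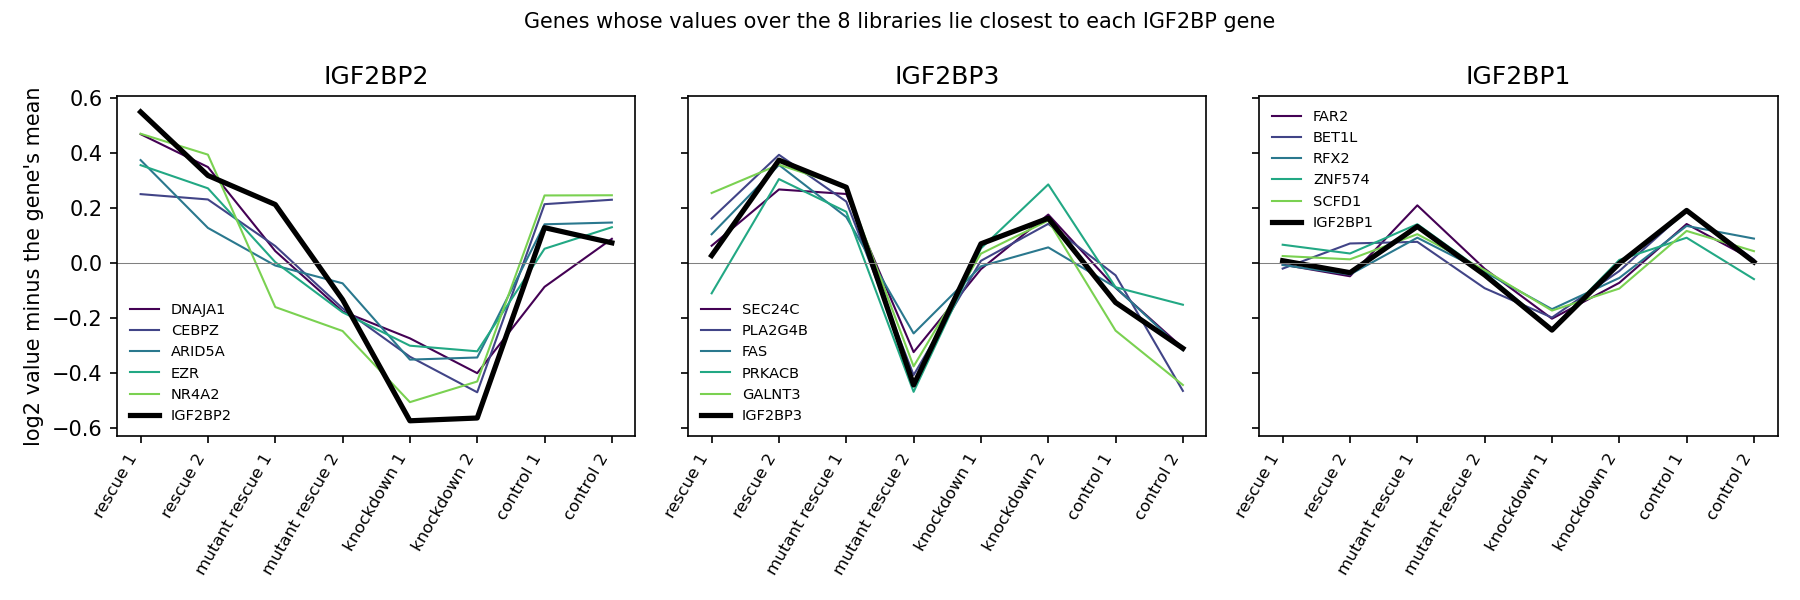
Log2 value minus the gene's own mean over the 8 libraries (vertical axis) in each library for each IGF2BP gene (thick line) and the 5 genes nearest to it (thin lines). The neighbours of IGF2BP2 lie above it in both knockdown libraries, those of IGF2BP3 share its drop in mutant rescue 2, and those of IGF2BP1 stay close to 0.

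The genes beside IGF2BP2 on chromosome 3 are SENP2, a SUMO protease, 10188 bases away, and TRA2B, a splicing regulator, 90850 bases away. TRA2B had log2 values of 11.00 and 11.09 in knockdown against 11.70 and 11.77 in control, a change of -0.69 (SE 0.11, adjusted p = 0.00685 by limma), a fall close in size to that of IGF2BP2. In rescue TRA2B had 11.40 and 11.32, a difference of 0.31 from knockdown that did not pass the threshold (adjusted p = 0.156), and in mutant rescue it had 11.00 and 11.27 and was lower than control by a change of -0.60 (adjusted p = 0.00604). SENP2 had 8.68 and 8.65 in knockdown against 8.89 and 8.90 in control (change -0.23, adjusted p = 0.159). With 8.95 and 8.94 in rescue and 8.52 and 8.59 in mutant rescue, SENP2 was higher in rescue than in mutant rescue (0.39, adjusted p = 0.0410) and lower in mutant rescue than in control (change -0.34, adjusted p = 0.0353). MALSU1, which overlaps IGF2BP3, differed by -0.41 between knockdown and control (adjusted p = 0.0503), the other sign from the difference of IGF2BP3.

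The gene lists below were chosen with earlier results of these data known. Their called shares, set beside those of all genes, are descriptions and not independent tests. A list of 36 mRNAs that have been reported as bound or stabilised by IGF2BP proteins was set beside the family. Of these, 27 were tested, and the other 9, IGF2, LIN28B, ABCB1, GLI1, MAPK4, LAMB2, UCP1, ALDH1A1 and HOXB4, were too low. In knockdown against control 2 rose and 4 fell, which is 22.2% of those tested against 12.8% of all genes, with a median change of -0.15 against 0.01 over all genes. PRMT6, an arginine methyltransferase named in the study's title, fell by 1.20 on the log2 scale (adjusted p = 0.000936). It had 8.20 and 8.08 in knockdown against 9.39 and 9.30 in control. Since the study itself names PRMT6, its place on the list may not be independent of these libraries. It is counted among the called targets here and in rescue against knockdown. HMGA1, an architectural chromatin protein, had 12.77 and 12.82 in knockdown against 13.39 and 13.40 in control (change -0.60, adjusted p = 0.00904). SLC2A1, the glucose transporter GLUT1 (change -0.42, adjusted p = 0.0314), and TK1, a thymidine kinase (change -0.38, adjusted p = 0.0398), also fell. The glycolytic enzyme HK2 rose (change 0.77, adjusted p = 0.0115), as did the adhesion receptor CD44 (change 0.41, adjusted p = 0.0462). The proto-oncogene MYC, a well known IGF2BP target, differed by -0.19 (adjusted p = 0.394).

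In rescue against knockdown 4 of the 27 rose and none fell, or 14.8% against 4.24% of all genes, of which 420 rose and 133 fell. They were E2F1, a cell cycle transcription factor (change 0.68, adjusted p = 0.0147), PRMT6 (0.62, adjusted p = 0.0157), SLC2A1 (0.53, adjusted p = 0.0259) and HMGA1 (0.46, adjusted p = 0.0416). The median of the list was 0.09 against 0.005 over all genes, and 23 tested members did not pass in either direction. This comparison and that of knockdown against control share the knockdown libraries. PRMT6, at 8.81 and 8.70 in rescue, stayed below control by a log2 change of -0.59 (adjusted p = 0.0142).

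In mutant rescue against knockdown 4 of the 27 rose and 2 fell, or 22.2% against 11.3% of all genes. E2F1 rose by 1.09 (adjusted p = 0.00221) and MYC by 0.65 (adjusted p = 0.0290). CTNNB1, which encodes beta-catenin, rose by 0.73 (adjusted p = 0.0395) and the growth factor gene HDGF by 0.73 (adjusted p = 0.0447). The HDGF values in mutant rescue, 10.10 and 10.79, lay far apart. HMGA2, the relative of HMGA1, fell by 0.89 (adjusted p = 0.00884) and the cell cycle kinase CDK6 fell by 0.61 (adjusted p = 0.0342). In rescue against mutant rescue, HMGA2 was higher in rescue (0.92, adjusted p = 0.00539), as was the glutamine transporter SLC1A5 (0.68, adjusted p = 0.0472). The replicates of SLC1A5 lay far apart, at 12.50 and 12.09 in rescue and 11.84 and 11.37 in mutant rescue. The test of this difference did not pass for the other 25, and the called share of 7.41% lay below the 10.5% of all genes. Against control, 1 rose and 2 fell in rescue (11.1% against 7.18% of all genes), and 5 rose and 6 fell in mutant rescue (40.7% against 24.9%).

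Among 20 proteins known from IGF2BP particles or as binding partners, all were tested. In knockdown against control none rose and 3 fell, a share of 15% that is near the 12.8% of all genes, with a median of -0.29 against 0.01 over all genes. G3BP1, a stress granule protein, had 11.61 and 11.67 in knockdown against 12.66 and 12.62 in control, and fell by 1.00 on the log2 scale (adjusted p = 0.000839). HNRNPM, a splicing regulator (change -0.65, adjusted p = 0.00418), and SYNCRIP, which sits with IGF2BP1 on the MYC mRNA (change -0.31, adjusted p = 0.0464), also fell. In rescue against knockdown HNRNPM (0.46, adjusted p = 0.0269) and G3BP1 (0.42, adjusted p = 0.0288) rose and none fell, 10% against 4.24% of all genes, with a median of 0.18. In mutant rescue against knockdown FXR2, a relative of the fragile X protein (0.57, adjusted p = 0.0319), and the poly(A)-binding gene PABPC4 (1.25, adjusted p = 0.0334) rose and none fell, 10% against 11.3% of all genes. The PABPC4 values were 8.61 and 9.70 in mutant rescue against 7.91 and 7.90 in knockdown, so that the mutant rescue libraries lay far apart. Between rescue and mutant rescue, G3BP1 and HNRNPM were higher in rescue and FXR2 and PABPC1 were lower (20% against 10.5% of all genes). Against control, 1 fell in rescue (5% against 7.18%), and 2 rose and 4 fell in mutant rescue (30% against 24.9%), both near the share of all genes.

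**Figure D5:**
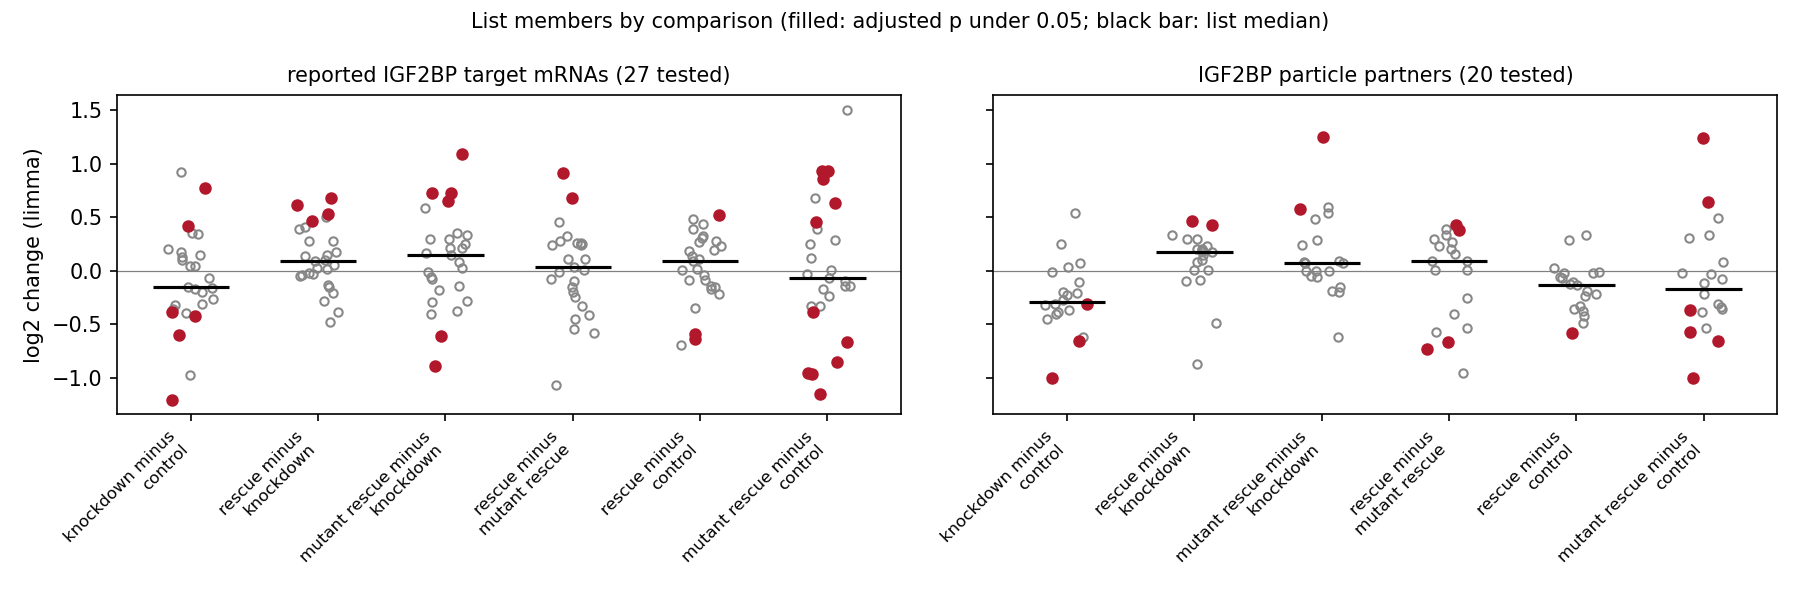
Log2 change by limma (vertical axis) of each tested gene of 2 lists in the 6 comparisons, filled where the adjusted p is under 0.05, with a bar at the list's median. Among reported target mRNAs 2 rose and 4 fell in knockdown against control, and among particle partners 3 fell.

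The counts of these lists depended on single libraries. The number of reported targets called in knockdown against control was 6 and ranged from 1 to 6 with 1 library left out, being 1 without control 2, knockdown 1 or knockdown 2. In rescue against knockdown it was 4 and ranged from 0 to 5, and for the partners it was 2 and ranged from 0 to 3. Both of these counts were 0 without either knockdown or either rescue library. In mutant rescue against knockdown the count of targets was 6 and ranged from 1 to 10, being 2 without knockdown 1, 1 without knockdown 2, 3 without mutant rescue 2, 10 without mutant rescue 1 and 3 with only these groups in the fit. The count of partners there was 2 and ranged from 0 to 5, being 0 without either control or either knockdown library and with only these groups in the fit, 1 without mutant rescue 2 and 5 without mutant rescue 1. In rescue against mutant rescue the ranges were 0 to 7 for targets and 0 to 8 for partners, and against control they were 0 to 3 and 1 to 2 in rescue and 5 to 13 and 2 to 10 in mutant rescue. The count of partners in knockdown against control was 3 and ranged from 1 to 4, being 1 without either knockdown library. PRMT6 and G3BP1 were called in knockdown against control in all 8 leave-one-out fits.

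Of 18 genes of the LIN28 and let-7 pathway, 16 were tested. LIN28B, which blocks let-7 maturation, was too low, and LIN28A had values near 4. In knockdown against control, TNRC6B, a silencing scaffold (0.71, adjusted p = 0.0266), and TUT4, a uridyltransferase of the let-7 precursor listed under its older symbol ZCCHC11 (0.46, adjusted p = 0.0314), rose, and HMGA1 fell (18.8% of the list against 12.8% of all genes). In rescue against knockdown ARID3B, a let-7 target gene, rose (0.71, adjusted p = 0.0215), as did HMGA1 (12.5% against 4.24%). In mutant rescue against knockdown 1 gene, ARID3A, rose and 3, HMGA2, LIN28A and ARID3B, fell (25% against 11.3%). The change of LIN28A, with its values near 4, was only -0.27 (adjusted p = 0.0340 by limma). In rescue against mutant rescue 2 genes, ARID3B and HMGA2, were higher and 1, ARID3A, was lower (18.8% against 10.5%). Against control 2 rose in rescue (12.5% against 7.18%), and 2 rose and 5 fell in mutant rescue (43.8% against 24.9%). With 1 library left out these counts ranged from 0 to 3, 0 to 2, 0 to 4, 1 to 7, 0 to 2 and 1 to 8 in the order given. The first was 0 without control 2 or either knockdown library, and that of rescue against control was 0 without either control, knockdown or rescue library. HMGA1, HMGA2 and LIN28B are on both this list and that of reported targets, as are IGF2 and IGF1R for the next list.

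Of 18 genes of insulin-like growth factor signalling, 8 were tested, and IGF2, whose mRNA gave the family its name, was not among them. By limma none was called in knockdown against control, rescue against knockdown, rescue against mutant rescue or rescue against control, and the number with an unadjusted p under 0.05 was 1, 1, 3 and 1 in these. INSR, the insulin receptor and the highest of the list, had 12.76 and 12.76 in knockdown against 12.51 and 12.80 in control. IGF2R, the receptor that clears IGF2, fell in mutant rescue against knockdown (change -0.67, adjusted p = 0.0390), and INSR rose in mutant rescue against control (change 0.79, adjusted p = 0.0327). Each is 12.5% of the list, against 11.3% and 24.9% of all genes, and neither comparison had a call with only its groups in the fit or without either knockdown library or mutant rescue 2.

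All 18 genes of m6A writers, erasers and other readers were tested. In knockdown against control YTHDF2, a reader that promotes mRNA decay, fell (change -0.42, adjusted p = 0.0443) and none rose, 5.56% of the list against 12.8% of all genes. No m6A gene was called in this comparison with no mean trend, with median scaling, or without control 2, either knockdown or either rescue library. None was called by limma in rescue against knockdown or in rescue against control, where 2 each had an unadjusted p under 0.05. HNRNPA2B1, the highest of the list, had 13.93 and 13.86 in rescue against 13.77 and 13.82 in knockdown. WTAP, a writer subunit, rose in mutant rescue against knockdown (0.84, adjusted p = 0.0423), RBM15, another, was higher in rescue than in mutant rescue (0.50, adjusted p = 0.0390), and 1 rose and 3 fell in mutant rescue against control. These shares were 5.56% against 11.3% of all genes, 5.56% against 10.5% and 22.2% against 24.9%, and the counts ranged from 0 to 7, 0 to 6 and 1 to 7 with 1 library left out. The family's own transcripts held the core of the m6A consensus, GGAC, counted on the transcript strand, at 3.79 per kilobase in IGF2BP2, 3.06 in IGF2BP3 and 4.71 in IGF2BP1. The median over 19907 transcripts was 3.90, and 98.9% held at least 1.

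All 10 myeloid marker genes were at 1 ppm or more in every library. Their summed level was 8306 to 9534 ppm in rescue, 16534 to 24174 in mutant rescue, 11239 to 11678 in knockdown and 3747 to 4070 in control, so that it moved with the groups, and its part in the results above was not tested. Summed markers of T cells, B cells, erythroid cells, megakaryocytes and fibroblasts did not exceed 1.76 ppm in any library, with 1 of 3 T-cell and 1 of 3 B-cell genes at 0 throughout. Epithelial markers summed to at most 6.16 ppm. Replicates differed least in knockdown and most in mutant rescue, where the SD of their log2 difference was 0.149 and 0.317 over genes with values above 5.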

How the data were processed

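The single table used was written by HOMER's getDiffExpression.pl, per the file headers. It holds log2 values of 8 libraries that the authors normalized and deposited, with the authors' log2 changes and p-values, raw and adjusted, for each pair of groups. Per the submitters' processing notes, kallisto, Trim Galore and HOMER were used, with GRCh38. Counts are not used here, so depth is unknown and precision is that of 2 libraries a group. Groups and replicate numbers came from the sample titles. Changes, and not only those of low genes, may be understated on the deposited scale.

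Of 35370 rows, 1 has no symbol. Genes reaching 1 ppm (of the summed linear values) in at least 2 libraries were tested with limma (version 3.58.1, R 4.3.3). A single model of 4 group means with a mean trend had 4 residual degrees of freedom. Calls required a Benjamini-Hochberg adjusted p under 0.05 over all 13030 genes. The procedure was tested on simulated data with noise drawn independently for each gene and library. Effects shared by many genes of a library were therefore not covered by that test. Alternatives were 2 other filters on low values, no trend, 2-group fits, median scaling, a replicate block and leaving out each library. The labels do not say that replicate numbers pair libraries, so the main model did not pair them. Differences between same-numbered libraries correlated between -0.0212 and 0.414 over pairs of groups, highest for knockdown and rescue. Pairing of some groups is therefore not excluded. Sequences came from GENCODE v29 and, for let-7a, RefSeq (GRCh38.p14). Named were the members, the 5 most alike genes of each and the genes beside IGF2BP2. Called list genes were named, at most 6 by adjusted p, or the highest gene of a list with none. For most lists, rescue or mutant rescue against control is given as counts of called genes without all names. MYC and MALSU1 were added after their values were seen. The members and lists were chosen with earlier results of these data known.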

Additional observations from a re-analysis of the deposited data

How the results depend on the processing

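Across the other filters, no trend, median scaling and the replicate block, no member changed its direction or its side of the threshold. With only the groups compared in the fit, IGF2BP2 in mutant rescue against knockdown kept its change of 0.61 but not its call. The count of genes called was then 2620 in knockdown against control (1667 with all groups), 1246 in rescue against knockdown (553), 279 in mutant rescue against knockdown (1473), 192 in rescue against mutant rescue (1370) and 1793 in mutant rescue against control (3241). The cause was not tested.

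With the replicate block, the adjusted p of IGF2BP2 was 0.00798 in knockdown against control, 0.00107 in rescue against knockdown, 0.0157 in mutant rescue against knockdown and 0.0512 in rescue against mutant rescue, and the numbers of genes called in these were 1787, 592, 1805 and 1765.

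With 1 library left out at a time, the genes called numbered 179 to 2359 in knockdown against control, 176 to 864 in rescue against knockdown, 79 to 2801 in mutant rescue against knockdown, 241 to 2870 in rescue against mutant rescue, 361 to 1422 in rescue against control (936 with all) and 1440 to 3953 in mutant rescue against control. In these fits a group left with 1 library is assumed to vary like the others. The change of IGF2BP2 was -0.70 to -0.64 in knockdown against control, 0.44 to 0.78 in mutant rescue against knockdown, 0.22 to 0.57 in rescue against mutant rescue and -0.23 to 0.11 in mutant rescue against control. That of IGF2BP3 was -0.0891 to 0.26 in rescue against knockdown, -0.56 to 0.16 in mutant rescue against knockdown, -0.0748 to 0.64 in rescue against mutant rescue and -0.22 to 0.50 in mutant rescue against control. That of IGF2BP1 was -0.0115 to 0.23 in rescue against knockdown, -0.15 to 0.0301 in rescue against mutant rescue and -0.15 to 0.0407 in mutant rescue against control. Groups of 2 allow no check for outlying libraries, and without counts the depth behind a value is unknown.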
